A study of Mus musculus with 6 samples.

Results

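Eicosanoids are short-lived lipid signals made from arachidonic acid, and 10 genes whose enzymes make them or handle a related lipid, platelet activating factor (PAF), were followed here in macrophages given an antibody against the receptor CSF1R. The genes were taken by name, and each was read from the probe set annotated to its symbol alone, or from the brightest such probe set on average. Of the 10 genes, 9 had such a probe set among 22180 genes on the array. Ptgs1, which encodes the constitutive cyclooxygenase COX-1, had none and was not analysed here. Macrophages had been grown with M-CSF for 7 days from bone marrow of 3 C57BL/KaLwRij mice and then shared the dish overnight with 5TGM1-luc cells, a luciferase-carrying line of mouse myeloma. The first group of 3 arrays came from cocultures that then had an antibody to mouse CSF1R at 0.5 nM for 3 days (their titles carry the code CS7), and the second group of 3 arrays from cocultures treated for the same time with a control IgG whose dose is not given separately. All cultures thus held the same strain, M-CSF pretreatment and myeloma line, and were washed 4 times to remove myeloma cells before RNA was taken. The labels do not tie a replicate to a mouse, so each p-value speaks only for the variation among these cultures, part of which may be technical.

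Cells free arachidonic acid from membranes with phospholipases A2. Cyclooxygenases turn it into PGH2, from which terminal synthases make prostaglandin E2, prostaglandin D2 or thromboxane A2. In the other branch 5-lipoxygenase, helped by the membrane protein FLAP, makes leukotriene A4, which becomes leukotriene B4, an attractant of neutrophils, or leukotriene C4, the parent of the cysteinyl leukotrienes that constrict airways and make vessels leak. Macrophages are known for making members of both branches.

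Of the 9 measured genes, 5 were higher with the antibody than with IgG and 0 were lower, against 12.5% of all genes higher and 16.0% lower (limma adjusted p below 0.05). The 5 were Hpgds and Tbxas1, whose enzymes turn PGH2 into prostaglandin D2 and thromboxane A2, Alox5ap, which encodes FLAP, Ltc4s, which encodes leukotriene C4 synthase, and Pla2g7, which encodes the secreted enzyme that inactivates PAF. Ptgs2, Ptges, Alox5 and Lta4h did not pass the test. Even at an unadjusted p under 0.05, 0 members were lower, where 4673 of all 22180 genes were. For the same 5 genes all 3 antibody arrays lay above all 3 IgG arrays, a pattern that 16.6% of all genes showed, and 0 members lay wholly below, as 22.7% of all genes did. The median log2 difference, antibody minus IgG, was 0.42 over the 9 genes and −0.02 over all 22180. The 9 differences ran from −0.18 for Ptgs2 to 1.25 for Alox5ap. All 9 genes lay above a guide to background (described below) in at least 1 group, as did 13116 of all genes. Of those 13116 genes, 2633 were higher and 3414 lower. The members were chosen with earlier results of these arrays known, and no test was made of them as a list.

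Sequences upstream of 4 of the genes that rose are shown. These genes share the call as higher, and shared control of them was not tested. They are RefSeq windows of 300 bases on build GRCm38.p6, from 250 bases before to 50 after the annotated start, written along the strand of the gene. The fifth gene that rose, Alox5ap, is named only. The windows lie at chr6:65144681-65144980 (minus strand) for Hpgds, chr6:38918736-38919035 (plus strand) for Tbxas1, chr11:50238483-50238782 (minus strand) for Ltc4s and chr17:43568201-43568500 (plus strand) for Pla2g7. Capitals mark GAGGAA or its reverse complement, the core of sites bound by PU.1, the lineage factor of macrophages.
Hpgds: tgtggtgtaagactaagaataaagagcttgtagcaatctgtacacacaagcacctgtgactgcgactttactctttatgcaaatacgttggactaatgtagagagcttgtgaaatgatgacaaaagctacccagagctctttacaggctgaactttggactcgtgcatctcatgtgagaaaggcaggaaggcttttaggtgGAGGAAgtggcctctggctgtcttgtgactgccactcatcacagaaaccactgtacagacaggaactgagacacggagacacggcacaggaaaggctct
Tbxas1: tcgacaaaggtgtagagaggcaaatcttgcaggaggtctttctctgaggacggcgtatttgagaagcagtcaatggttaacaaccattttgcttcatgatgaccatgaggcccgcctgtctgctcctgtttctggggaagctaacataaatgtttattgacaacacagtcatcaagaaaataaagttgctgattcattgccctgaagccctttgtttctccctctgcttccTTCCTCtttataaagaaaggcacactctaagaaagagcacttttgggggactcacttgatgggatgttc
Ltc4s: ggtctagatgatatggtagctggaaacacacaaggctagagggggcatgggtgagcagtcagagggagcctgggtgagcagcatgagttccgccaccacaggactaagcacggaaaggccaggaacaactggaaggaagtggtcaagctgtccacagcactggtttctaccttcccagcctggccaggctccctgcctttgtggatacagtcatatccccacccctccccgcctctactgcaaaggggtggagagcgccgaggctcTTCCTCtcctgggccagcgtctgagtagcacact
Pla2g7: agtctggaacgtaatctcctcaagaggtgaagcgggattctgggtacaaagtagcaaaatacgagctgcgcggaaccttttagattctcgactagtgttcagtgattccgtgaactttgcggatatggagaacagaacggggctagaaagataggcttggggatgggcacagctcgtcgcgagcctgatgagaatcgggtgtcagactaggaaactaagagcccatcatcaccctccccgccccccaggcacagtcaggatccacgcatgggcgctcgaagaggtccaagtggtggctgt
GAGGAA was found on either strand in 8 of the 9 member windows in the table and in 28.3% of all 32851 windows. In Hpgds it began 49 bases and in Tbxas1 19 bases before the start, and in Ltc4s at base 17 when the start is base 1. Pla2g7 was the member without it. The letters were present as well in the unmeasured Ptgs1 and in Ptgs2, Ptges, Alox5 and Lta4h, which did not pass the test, so their presence did not separate the genes that rose from those that did not.

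In all, 8 motifs were searched on both strands in these windows, a set chosen after the values were known. The AP-1 motif TGANTCA was found in Tbxas1 alone (7.8% of all windows) and the C/EBP motif TTGCNNAA in Ptgs2 and Hpgds (10.8%). The cyclic AMP response core TGACGT and the E-box CACGTG were found in Ptgs2 alone (7.5% and 7.2%), where they overlapped. The RUNX motif TGNGGT was found in 6 windows (45.8% of all), the GC box GGGCGG in 4 (35.7%) and TATAAA in Tbxas1 alone (13.6%). These matches describe letters in short windows and were not tied to binding.

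Ptgs2 encodes the inducible cyclooxygenase COX-2, which commits arachidonic acid to prostanoids. Its log2 intensity was 6.02, 6.22 and 5.99 on the antibody arrays and 6.22, 6.37 and 6.18 on the IgG arrays. The groups overlapped, since the second antibody array reached the level of the lower IgG arrays. The log2 difference was −0.18 (SE 0.08; 95% interval −0.39 to 0.02) and did not pass the test (limma adjusted p = 0.18). That interval leaves room for no change and for a fall of the Ptgs2 transcript, but not for a rise like those of the synthases that follow it.

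The synthases that act on PGH2 were uneven. Ptges encodes the inducible prostaglandin E synthase, which usually works with COX-2. It stood at 5.53, 5.59 and 5.07 with the antibody and at 5.44, 5.33 and 5.28 with IgG. The third antibody array was the lowest of the 6 and the other antibody arrays were the highest, so the group was split. The log2 difference was 0.05 (SE 0.14; 95% interval −0.29 to 0.39; adjusted p = 0.85), and it was −0.02 without antibody replicate 1, −0.05 without antibody replicate 2 and 0.21 without antibody replicate 3.

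Hpgds encodes hematopoietic prostaglandin D synthase, the enzyme that makes prostaglandin D2 in immune cells. Its values were 10.57, 10.57 and 10.58 on the antibody arrays, against 9.36, 9.42 and 9.47 on the IgG arrays. The lowest antibody array lay well above the highest IgG array. The rise was 1.16 on the log2 scale (SE 0.05; 2.23-fold; adjusted p = 1.5e-05), larger than all but 458 of the 22180 genes. Ptgds, the other prostaglandin D synthase, known from brain, was at 4.57 with the antibody and 4.66 with IgG.

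Tbxas1 encodes thromboxane A synthase, whose product constricts vessels and activates platelets. It measured 8.79, 8.79 and 8.86 with the antibody and 7.89, 7.88 and 7.92 with IgG. Again no antibody array came near the IgG arrays. The rise was 0.92 (SE 0.05; 1.89-fold; adjusted p = 2.8e-05).

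**Figure D1:**
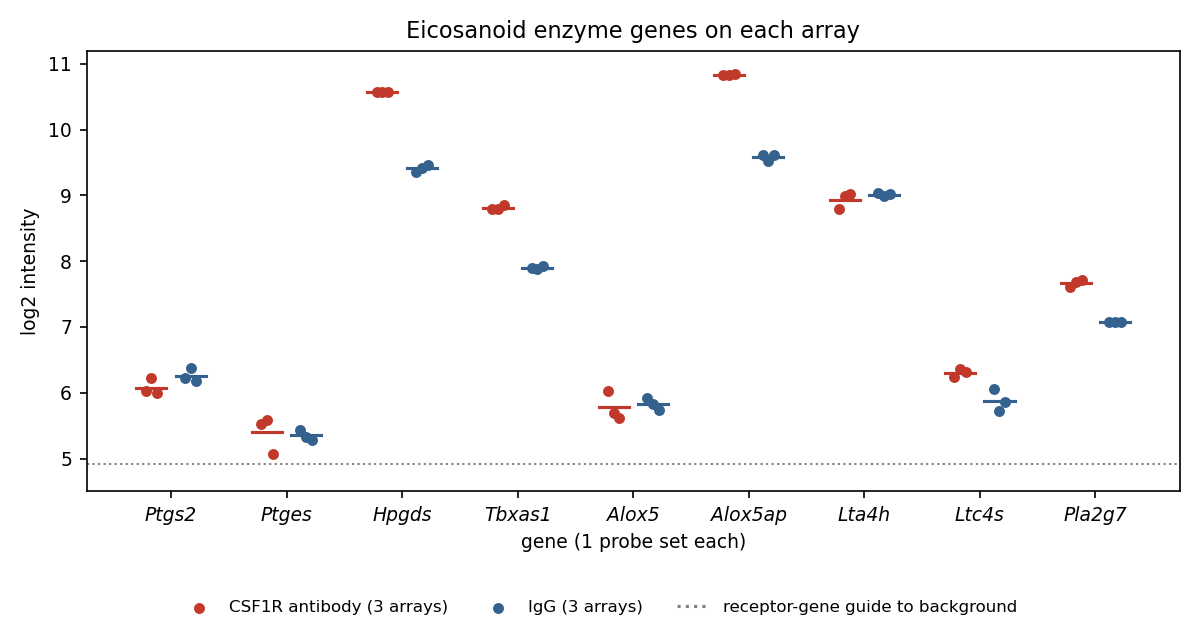
Log2 intensity (vertical axis) of the 9 measured enzyme genes (horizontal axis) on 3 CSF1R antibody arrays (red, left of each pair) and 3 IgG arrays (blue, right), with a bar at each group mean and a dotted line at 4.92, the guide to background from olfactory and vomeronasal receptor genes. Antibody points lie wholly above IgG points for Hpgds, Tbxas1, Alox5ap, Ltc4s and Pla2g7, and the groups overlap for Ptgs2, Ptges, Alox5 and Lta4h.

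Within the 5-lipoxygenase branch Alox5ap and Ltc4s rose, while the values of Alox5 and Lta4h overlapped between groups. Alox5, which encodes 5-lipoxygenase itself, was at 6.02, 5.69 and 5.62 with the antibody and 5.92, 5.83 and 5.74 with IgG. The first antibody array was the highest and the other antibody arrays were the lowest of the 6. The log2 difference was −0.05 (SE 0.11; 95% interval −0.32 to 0.22; adjusted p = 0.80), and 0.03 without antibody replicate 3 and −0.17 without antibody replicate 1. A second probe set of Alox5 gave 4.01 with the antibody and 3.99 with IgG, under the guide to background of 4.92.

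Alox5ap encodes FLAP, which presents arachidonic acid to 5-lipoxygenase at the nuclear membrane. It had the largest rise among the members, with 10.83, 10.83 and 10.84 on the antibody arrays against 9.61, 9.52 and 9.62 on the IgG arrays. The antibody arrays were almost equal and the IgG arrays lay close together, well below them. The rise was 1.25 (SE 0.05; 2.37-fold; adjusted p = 1.3e-05). A second Alox5ap probe set also rose, with 7.20, 7.18 and 7.49 on the antibody arrays and 6.24, 6.39 and 6.09 on the IgG arrays (log2 difference 1.05, SE 0.11; adjusted p = 0.00071 over 23521 probe sets). Over the 6 arrays, the genes with the most similar pattern to Alox5ap were Rab3il1, Fcgr1 and Sumf1, at root mean square distances of 0.017, 0.022 and 0.023 between log2 values centred on each gene's mean. Their own log2 differences were 1.26, 1.27 and 1.28. Because 6 arrays fall into just 2 groups, this likeness mostly restates equal size of change.

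Lta4h encodes leukotriene A4 hydrolase, which makes leukotriene B4. Its values were 8.80, 8.99 and 9.02 with the antibody and 9.03, 8.99 and 9.02 with IgG. Only the first antibody array stood apart, below the rest. The log2 difference was −0.08 (SE 0.07; 95% interval −0.24 to 0.08; adjusted p = 0.47), and 0.04 with cyclic loess scaling.

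Ltc4s encodes leukotriene C4 synthase, which joins leukotriene A4 to glutathione. It measured 6.24, 6.36 and 6.32 with the antibody and 6.06, 5.72 and 5.86 with IgG. The groups did not overlap, and the first IgG array lay nearest to the antibody arrays. The rise was 0.42 (SE 0.09; 1.34-fold; adjusted p = 0.014). It was the least firm of the 5 rises: adjusted p was 0.054 without antibody replicate 2 and 0.054 without IgG replicate 3, with log2 differences of 0.40 and 0.41.

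Pla2g7 encodes lipoprotein-associated phospholipase A2, also called PAF acetylhydrolase, which cleaves PAF and oxidised phospholipids and does not supply arachidonic acid. Its values were 7.61, 7.68 and 7.72 on the antibody arrays and 7.08, 7.07 and 7.08 on the IgG arrays. Every antibody array was above every IgG array, with little spread in either group. The rise was 0.60 (SE 0.05; 1.51-fold; adjusted p = 0.00021).

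**Figure D2:**
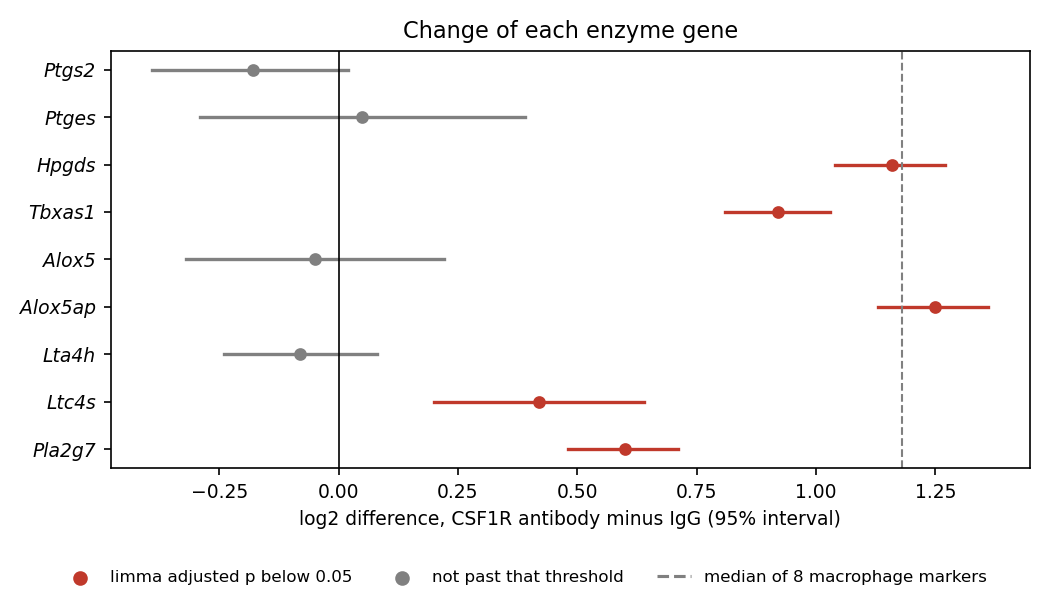
Log2 difference, CSF1R antibody minus IgG (horizontal axis), of the 9 genes (vertical axis) with limma's 95% interval, red where adjusted p was below 0.05 and grey otherwise; the dashed line is the median difference of 8 macrophage markers, 1.18. The intervals of Hpgds and Alox5ap span that line, those of Tbxas1, Pla2g7 and Ltc4s lie between it and 0, and those of Ptgs2, Ptges, Alox5 and Lta4h span 0.

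Members that share a substrate or act as partners were compared by the log2 ratio of their signals within each array, in 4 pairs. The ratio of Alox5ap to Alox5 was 1.30 higher with the antibody (SE 0.14), that of Hpgds to Ptges 1.11 higher (SE 0.19), that of Tbxas1 to Ptges 0.87 higher (SE 0.20) and that of Ltc4s to Lta4h 0.50 higher (SE 0.10). For each pair all 3 antibody arrays lay above all 3 IgG arrays. Ptges (5.40 with the antibody, 5.35 with IgG) and Alox5 (5.78 with the antibody, 5.83 with IgG) were dim. The ratios that hold them thus mostly restate the rises of Hpgds, Tbxas1 and Alox5ap. Lta4h changed little (log2 difference −0.08), so its ratio mostly restates the rise of Ltc4s (0.42). Each pair set a member called higher over one not called, and the pairs were chosen with earlier results known. Their separation is therefore not further support for the rises. The two-sided exact permutation p was 0.10 for each pair, also after adjustment over the 4, which is the smallest that 3 against 3 arrays allow. The pair of cyclooxygenases was not compared, as Ptgs1 was not measured.

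Macrophage markers moved on the same arrays, and so did those of the myeloma line's lineage. Over all genes, 12.5% rose and 16.0% fell. All 8 macrophage markers (Adgre1, Csf1r, Itgam, Cd68, Mertk, Fcgr1, Lyz2 and Cd14) were above the guide to background in both groups and all 8 rose, by 0.33 to 1.74. Their summed intensity was 27036 to 27909 on the antibody arrays and 15301 to 16010 on the IgG arrays. Of 8 plasma cell markers 6 fell and 0 rose, among them Pou2af1 (11.00 with the antibody, 11.63 with IgG), Jchain (9.67 with the antibody, 10.09 with IgG) and Irf4 (11.06 with the antibody, 11.47 with IgG). Their sum was 9743 to 9846 with the antibody and 12664 to 13365 with IgG. All but Tnfrsf17 were above the guide to background in both groups, after the washes. Of 8 stromal markers 4 fell and 1 rose (summed intensity 474 to 505 with the antibody, 687 to 704 with IgG), and the one that rose, Dcn, was under the guide to background in both groups, at 4.43 with the antibody and 4.11 with IgG. In RNA of a whole culture, fewer cells of a type and less RNA per cell cannot be told apart, and the part of these shifts in the enzyme results was not tested.

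Set against the mean of the 8 macrophage markers on the same array, which was itself 1.09 higher with the antibody, the members kept different distances. Alox5ap was 0.15 higher (SE 0.03) and Hpgds 0.07 higher (SE 0.03), while the relative difference was −0.17 for Tbxas1 (SE 0.01), −0.49 for Pla2g7 (SE 0.02) and −0.67 for Ltc4s (SE 0.10). The antibody arrays lay wholly to one side for each of these genes but Hpgds (exact permutation p = 0.20, and 0.10, the smallest possible, for the others). For Ptgs2, Lta4h, Alox5 and Ptges these relative differences were −1.28, −1.17, −1.14 and −1.04, also with exact permutation p = 0.10. Because the markers rose, a gene without any change also lies wholly to one side. Such separation therefore says little about a member, and the share of all genes that show it was not computed. The 8 markers themselves rose by 0.33 (Cd68) to 1.74 (Cd14). The median of their differences was 1.18, between the rises of Hpgds (1.16) and Alox5ap (1.25). The size and sign of small offsets thus depend on the markers chosen, which the SE does not cover.

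Hpgds and Ltc4s are also known from mast cells, Alox5 from neutrophils and Tbxas1 from platelets. The 8 mast cell markers were all at or below the guide to background in both groups and 0 passed the test, with a sum of 101 to 103 on the antibody arrays and 102 to 104 on the IgG arrays. The log2 intensity of Cpa3 was 2.84 on antibody arrays and 2.98 on IgG arrays, and that of Ms4a2 was 3.62 on antibody arrays and 3.74 on IgG arrays. Of 8 neutrophil markers 7 were at or below the guide and 0 passed, with a sum of 146 to 149 with the antibody and 147 to 151 with IgG. S100a8, a defining neutrophil gene, was at 3.13 with the antibody and 3.09 with IgG. In neither list did any marker reach an unadjusted p of 0.05. At the stricter adjusted threshold 28.5% of all genes passed. Of 4 measured markers of megakaryocytes and platelets, Pf4 (log2 difference 1.23) and Ppbp (1.41) rose, both chemokines that macrophages can make too, while Itga2b fell by 0.34 and Gp9 was at 5.18 with the antibody and 5.17 with IgG. The sum of these 4 was 790 to 876 with the antibody and 404 to 438 with IgG. Pf4 was the brightest of the 4 (9.21 with the antibody, 7.98 with IgG), so this sum mostly followed Pf4. The part of platelet or megakaryocyte RNA in the Tbxas1 result was not tested. Of 5 eosinophil markers, Ccr3 rose by 0.69 and Il5ra fell by 0.52, while Prg2 and Epx were at or below the guide. Their summed intensity was 1597 to 1636 with the antibody and 2188 to 2209 with IgG. Il5ra was by far the brightest of the 5 (10.49 with the antibody, 11.00 with IgG), so this sum mostly followed Il5ra alone.

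**Figure D3:**
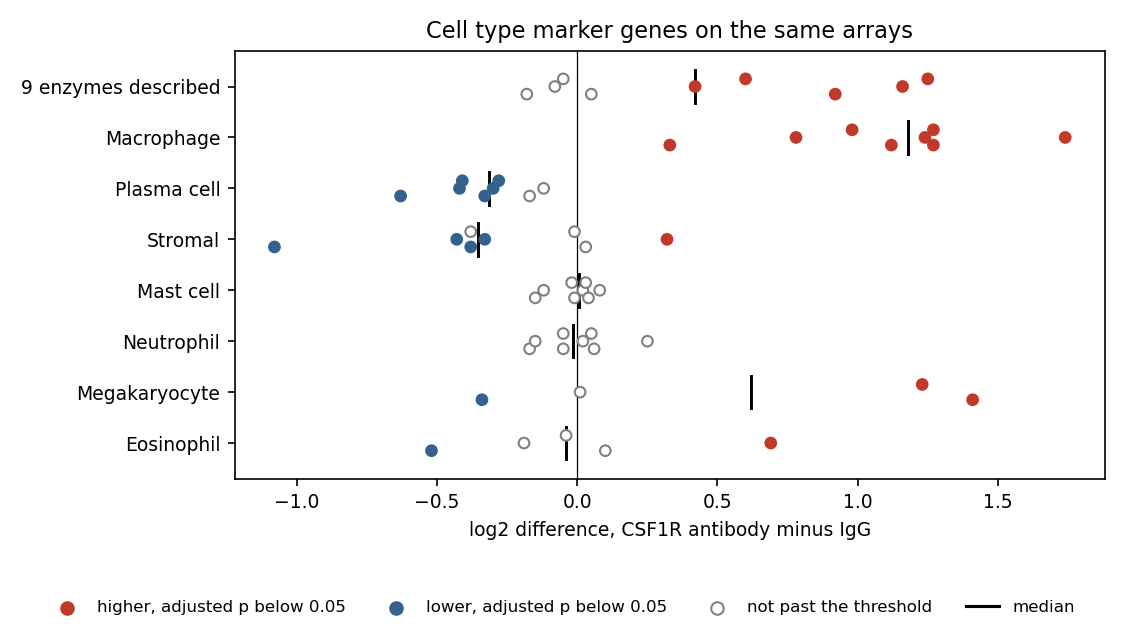
Log2 difference, CSF1R antibody minus IgG (horizontal axis), of single genes in the 9 enzymes and in 7 lists of cell type markers (rows); red points passed the test as higher, blue as lower, open points did not pass, and black bars are medians. All 8 macrophage markers are red, 6 of 8 plasma cell markers are blue, and all mast cell and neutrophil markers are open.

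Beyond the 9 enzymes, 85 other genes of the pathway had been listed and 75 were measured. Of these, 23 were higher and 10 lower with the antibody, or 44.0% called, against 28.5% of all genes. Their median log2 difference was 0.07. The list was drawn up from textbook knowledge with earlier results of these arrays known.

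Upstream of the members, phospholipases A2 went both ways: of 13 measured, 2 rose and 4 fell, where 12.5% of all genes rose and 16.0% fell. One of the falls, that of Pla2g4c (4.64 with the antibody, 4.91 with IgG), was of a gene under the guide to background in both groups, and its adjusted p of 0.018 became as high as 0.065 with 1 array left out. Pla2g15, a lysosomal phospholipase, rose by 0.91 (SE 0.06) and the secreted Pla2g2e by 0.58 (SE 0.06), whereas the secreted Pla2g5 fell by 0.68 (SE 0.05). Pla2g4a, the cytosolic enzyme best known for freeing arachidonic acid, was picked out after its values were seen. It was at 8.98, 8.98 and 9.02 with the antibody and 9.23, 9.27 and 9.32 with IgG, and fell by 0.28 (SE 0.05; adjusted p = 0.0049), or by 0.16 (adjusted p = 0.045) with cyclic loess scaling. Pla2g6, the calcium-independent enzyme, also named after its values were seen, fell by 0.44 (SE 0.04). Of 9 genes for other handling of arachidonic acid 2 rose and 2 fell. Daglb, a lipase that releases the arachidonate-bearing endocannabinoid 2-AG and is active in macrophages, rose by 0.73 (SE 0.06) and its relative Dagla by 0.63 (SE 0.13; adjusted p = 0.012, and 0.050 without antibody replicate 3). Faah, which breaks down anandamide, fell by 0.57 (SE 0.06).

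Other synthases rose in 4 of 12 cases and fell in 2, where 12.5% of all genes rose and 16.0% fell. Dpep2, a dipeptidase that turns leukotriene D4 into leukotriene E4, measured 10.82, 10.82 and 10.83 with the antibody against 9.30, 9.41 and 9.38 with IgG, a rise of 1.45 (SE 0.05; 2.74-fold). Dpep1, a dipeptidase of the same step, went the other way. It was at 5.75, 5.86 and 5.62 with the antibody and 6.14, 5.92 and 6.09 with IgG, and fell by 0.31 (SE 0.08; adjusted p = 0.036). The other gene that fell was Ptges3, a cytosolic prostaglandin E synthase and co-chaperone, at 6.57 with the antibody and 6.76 with IgG (log2 difference −0.19, SE 0.06; adjusted p = 0.046). Neither fall was firm: adjusted p was 0.057 for Dpep1 and 0.16 for Ptges3 with cyclic loess scaling, and up to 0.12 for Dpep1 and 0.13 for Ptges3 with 1 array left out. Mgst2, which can also make leukotriene C4, had a mean of 5.07 (antibody) against 4.83 (IgG). It missed the threshold (adjusted p = 0.061). An added, unplanned filter kept genes above the guide to background in at least 1 group and gave adjusted p = 0.028. With IgG Mgst2 was under the guide, so it stayed in that filter only through the antibody group. That value is therefore not taken as support for a rise. Dpep1, Ptges3 and Mgst2 were named after their values were seen. Mgst1, a relative of Ltc4s and Ptges in the family of membrane glutathione transferases, rose by 1.22 (SE 0.06), and Fam213b (now Prxl2b), named for prostamide and prostaglandin F synthase activity, by 0.98 (SE 0.04). Of the 6 other lipoxygenases 0 passed limma's test, and 0 had an unadjusted p under 0.05. They lay between 3.62 and 4.98 with the antibody and between 3.71 and 5.00 with IgG. Just 2 of the 6 were above the guide to background in at least 1 group, both close to it. The arrays thus do not show whether these lipoxygenases changed. Of 6 genes of the cytochrome P450 branch 2 rose, Ephx1, an epoxide hydrolase, by 1.14 (SE 0.04) and Cyp2j6 by 0.48 (SE 0.10).

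Genes for inactivation and transport rose in 5 of 10 cases and fell in 1, against 12.5% and 16.0% of all genes. Ptgr1, a reductase that inactivates leukotriene B4 and prostaglandins, rose by 0.93 (SE 0.10), the exporter Abcc4 by 0.67 (SE 0.09) and Cyp4f18, a leukotriene B4 hydroxylase, by 0.64 (SE 0.13). The gene that fell was another exporter, Abcc1, named after its values were seen. It was at 8.32 with the antibody and 8.63 with IgG (log2 difference −0.31, SE 0.05, adjusted p = 0.0032). Hpgd, which starts the breakdown of prostaglandin E2, was singled out after its values were seen. It was at 4.74, 4.92 and 5.62 with the antibody and 5.71, 5.61 and 5.71 with IgG. The third antibody array sat among the IgG arrays and the others lay well below them. The log2 difference was −0.58 (SE 0.22; adjusted p = 0.10), and −0.85 without antibody replicate 3 (adjusted p = 0.0016). With all 6 arrays weighted by their quality it was −0.69 (adjusted p = 0.035).

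**Figure D4:**
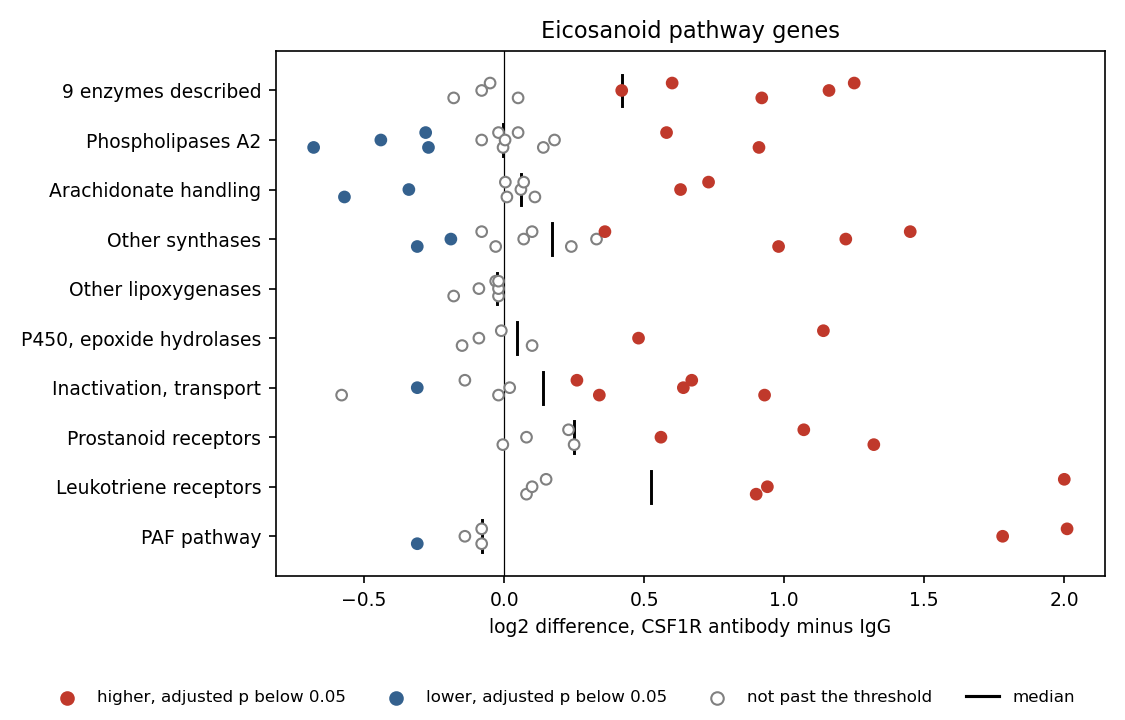
Log2 difference, CSF1R antibody minus IgG (horizontal axis), of the 9 enzymes and of 75 other genes of the pathway in 9 lists (rows), with red points higher and blue points lower at adjusted p below 0.05, open points not past it, and black bars at medians. The largest rises are in the leukotriene receptor list and the PAF list, and the phospholipases hold points on both sides.

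Receptors for the products rose where they passed the test. Of 7 prostanoid receptors 3 rose and 0 fell, against 12.5% and 16.0% of all genes. Ptger4, a receptor for prostaglandin E2 that raises cyclic AMP, was at 8.17, 8.15 and 8.19 with the antibody and 6.96, 6.72 and 6.87 with IgG, a rise of 1.32 (SE 0.07; 2.50-fold). Ptger3, another prostaglandin E2 receptor, rose by 1.07 (SE 0.10), from a level near the guide to background with IgG (4.98). The prostacyclin receptor Ptgir rose by 0.56 (SE 0.10). Tbxa2r, the receptor for thromboxane A2, named after its values were seen, was at 5.73 with the antibody and 5.65 with IgG (adjusted p = 0.62).

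Of 6 leukotriene and related receptors 3 rose and 0 fell, against 12.5% and 16.0% of all genes. Cysltr1, the main receptor for leukotriene D4, measured 7.58, 7.74 and 7.77 with the antibody against 5.65, 5.80 and 5.64 with IgG. The gap between the groups was many times the spread within them, and the rise was 2.00 (SE 0.07; 3.99-fold; adjusted p = 1.2e-05). Cysltr2, the second cysteinyl leukotriene receptor, rose by 0.94 (SE 0.16; under the guide to background with IgG, at 4.70), and the resolvin and chemerin receptor Cmklr1 by 0.90 (SE 0.14; also under the guide with IgG, at 4.65). Ltb4r1, the high-affinity receptor for leukotriene B4, picked out after its values were seen, was at 5.16 with the antibody and 5.07 with IgG (adjusted p = 0.58), and its difference was −0.02 without antibody replicate 3.

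In the PAF pathway 2 of 6 genes rose and 1 fell, apart from Pla2g7, against 12.5% and 16.0% of all genes. Lpcat2, which makes PAF in activated macrophages, was at 9.57, 9.68 and 9.74 with the antibody and 7.76, 7.49 and 7.69 with IgG, a rise of 2.01 (SE 0.09; 4.04-fold). Ptafr, the PAF receptor, measured 12.11, 12.11 and 12.15 with the antibody against 10.38, 10.34 and 10.32 with IgG, a rise of 1.78 (SE 0.04; 3.43-fold). Lpcat1, another enzyme able to make PAF, was at 9.03 with the antibody and 9.12 with IgG (adjusted p = 0.32). Pafah1b3, a subunit of an intracellular PAF acetylhydrolase, fell by 0.31 (SE 0.06). Pafah2, a second intracellular PAF acetylhydrolase, had a mean of 7.05 (antibody) against 7.18 (IgG). It missed the threshold (adjusted p = 0.10) but passed when genes under the guide to background in both groups were left out (adjusted p = 0.044), an unplanned filter. Lpcat1 and Pafah2 were named after their values were seen.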

How the data were processed

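GeneChip Mouse Gene 2.0 ST arrays were run on RNA of 6 cultures. The deposited values are linear probe set intensities. The submitters' processing notes list RMA and limma without version or role; the genome build is not given in the sources used here. RMA usually equalises the arrays' distributions, which would hide a change shared by most genes. Values were taken as log2. Of 22180 genes, 540 had equal values on all antibody arrays and 324 on all IgG arrays, of untested origin, so very small spreads such as those of Hpgds and Alox5ap with the antibody are not taken as a measure of precision. Array medians were 4.88 to 4.95, and Pearson correlations over 41345 probe sets were 0.992 to 0.993 within and 0.984 to 0.985 between groups. Gene names came from the platform annotation (23521 probe sets had 1 symbol, 1814 several and 16010 none). No filter on low signal was set; a guide to background, 4.92, was the 95th percentile of the means of 1394 odorant (olfactory) and vomeronasal receptor genes.

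The group difference was fitted by lmFit and eBayes of limma 3.58.1 (R 4.3.3). P-values were adjusted by Benjamini-Hochberg over 22180 genes and called below 0.05. For differences of single genes, SE is limma's moderated standard error. For ratios of paired members, and for members set against macrophage markers, it is an unmoderated standard error from 3 arrays a group. The step was tested on simulated data. Figures used matplotlib 3.10.9. Members, lists and tests were chosen with earlier results of these data known. Genes were named by rule: all members, up to 3 genes of each list with the largest change past the test, or, in a list where 0 passed, the 2 lowest in p, and the 3 genes most like the member with the largest rise; others are said to be named after their values were seen. Ptgds, Gp9, S100a8, Prg2, Epx, Tnfrsf17, Pla2g4c and Dcn were also singled out in that way, as was the setting of members against macrophage markers. Lists for dendritic cells (0 of 5 measured markers passed) and B and T cells (0 of 4 passed) were tested too. So was a list for endothelial cells (Kdr, 1 of 4, rose by 1.34). Of all genes 28.5% passed. In the lists where 0 passed limma's test, 0 markers had an unadjusted p under 0.05. Alternatives were other variance models, scalings, filters, thresholds, the mean of probe sets, a block for the replicate number, and fits without each array in turn. Promoter windows came from RefSeq (GRCm38.p6) and matched 9 of 10 members.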

Additional observations from a re-analysis of the deposited data

How the results depend on the processing

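Hpgds, Tbxas1, Alox5ap and Pla2g7 kept their rise and their call in all 18 alternatives, with log2 differences of 1.13 to 1.28, 0.89 to 1.03, 1.15 to 1.36 and 0.57 to 0.68. Ltc4s (0.34 to 0.51) lost its call at a threshold of 0.01 and without antibody replicate 2 or IgG replicate 3. The count of members that rose was 4 or 5 throughout, and 0 fell. Some small differences that had not passed the test changed sign: with cyclic loess Lta4h was 0.04 and Lpcat1 0.03, and leaving out 1 array gave −0.05 to 0.21 for Ptges, −0.17 to 0.03 for Alox5, −0.02 to 0.19 for Ltb4r1 (lowest without antibody replicate 3), −0.05 to 0.10 for Gp9, −0.13 to 0.04 for Prg2 and −0.04 to 0.24 for Epx; the cause was not tested. The ratios of paired members kept their direction in all 8 alternatives run. Over all genes, 2766 were higher and 3548 lower; at a threshold of 0.01 the count of lower genes was 2232, by construction of the stricter limit. With cyclic loess 3334 were higher and 2444 lower, so that 57.7% of called genes were higher in place of 43.8%, and the median difference of all genes was 0.00 in place of −0.02. The replicate number as a block gave 2569 higher and 2980 lower genes and changed the call of 4 of 83 genes followed: Ptges3 (adjusted p = 0.075), Dpep1 (0.084) and Pla2g4c (0.051) lost theirs and Mgst2 (0.042) gained one; same-numbered arrays did not deviate together (correlations 0.02, −0.04 and 0.00), so shared numbers were not taken as pairs. The planned ratio of Ptgs2 to Ptgs1 was not run. With 3 arrays a group, small changes of dim genes such as Ptges and Alox5 cannot be resolved.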
